A study of Rattus norvegicus with 8 samples.

Results

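Senescence markers and secretory genes were examined in the rat thyroid after cervical X-irradiation. The set was chosen by gene symbol and held 9 genes: the cell cycle inhibitors Cdkn2a, Cdkn2b, and Cdkn1b, the secretory factors Ccl2, Cxcl1, and Il6, and the nuclear and lysosomal markers Lmnb1, Hmgb2, and Glb1. Of these, 8 had a row under that symbol among the 30560 gene identifiers of the series. Hmgb2 had no row of its own symbol, and the 2 rows named Hmgb2l1 are described separately. Thyroid RNA came from male Wistar rats, an outbred laboratory strain, whose necks received a dose of 4 Gy or a sham exposure, either at 1 week of age (1w4Gy and 1w0Gy) or at 4 months of age (4m4Gy and 4m0Gy). Each group held 2 samples, the thyroids were taken about 8 weeks after exposure, and the whole series held 8 samples. The samples of each group came from different rats, and, per the study's methods, the RNA preparations of higher integrity were the ones sequenced. The rats of the 1w and 4m groups thus also differed in age at dissection.

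Senescence is a lasting exit from the cell cycle that radiation damage can cause. The inhibitors bind cyclin-dependent kinases and so keep the retinoblastoma protein active, the nuclear lamina loses lamin B1, lysosomal beta-galactosidase activity increases, and the cells release chemokines and cytokines known as the secretory phenotype. In the thyroid most cells are thyrocytes, which divide rarely in the adult, and the gland also holds C cells, endothelium, fibroblasts, and macrophages.

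Each sample held 14835406 to 18138113 counts on genes (median 16180951.5). Thyroglobulin (Tg), the hormone precursor of thyrocytes, took 18.5% to 21.3% of these counts, and the 9 thyrocyte markers summed to 189730 to 225320 CPM, counts per 1000000 counts of the library. Markers of other tissues were present as well. The 7 adipocyte markers summed to 196.81 to 610.07 CPM and the 6 skeletal muscle markers with a row to 6.86 to 92.5 CPM. The 3 parathyroid markers summed to 1940.3 to 5481.5 CPM in 7 samples and to 343 CPM in 4m4Gy sample 2, which stood apart. The library totals behind all CPM were first corrected for composition by TMM. Differences were tested by edgeR's quasi-likelihood test over all genes that passed its filter on low counts, and a gene was called changed where the Benjamini-Hochberg adjusted p was below 0.05.

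The 8 genes spanned a wide range of levels. On the deposited TPM, which are scaled by transcript length, Cdkn1b was at 44.0 ± 2.88 TPM and Glb1 at 16.0 ± 2.08 (mean ± SD, n = 8). Lmnb1 was at 4.23 ± 0.439 TPM and Ccl2 at 2.67 ± 0.869, and their ranges overlapped between 3.51 TPM, the lowest Lmnb1 sample, and 4.13 TPM, the highest Ccl2 sample. Cdkn2b was at 0.340 ± 0.0986 TPM, Cxcl1 at 0.185 ± 0.0893, Cdkn2a at 0.129 ± 0.109, and Il6 at 0.0413 ± 0.0222. Within these lowest 4 genes, each overlapped its neighbour in the order. Cdkn1b, Glb1, and Lmnb1 did not overlap with each other, and no Ccl2 sample was as low as a Cdkn2b sample.

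**Figure D1:**
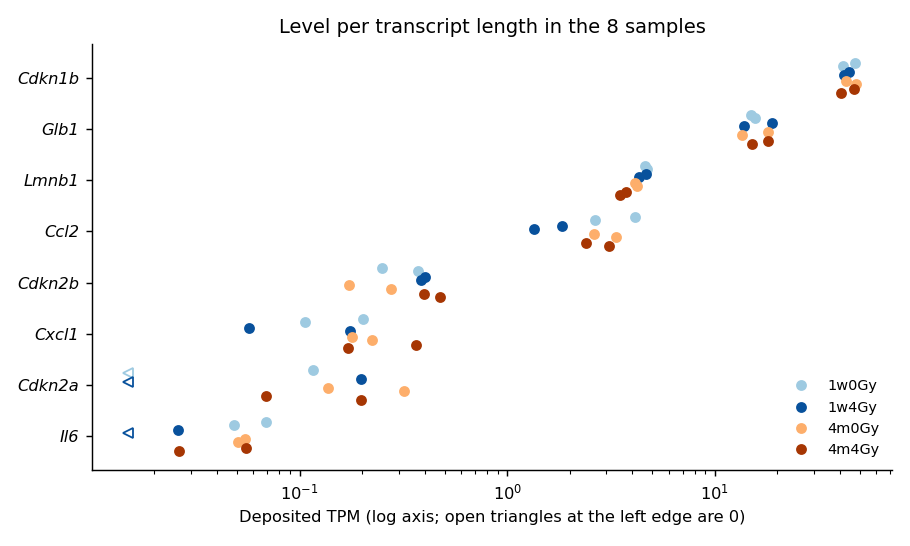
Level per transcript length of the 8 genes found by symbol. The horizontal axis is the deposited TPM on a log scale, each point is a sample coloured by group, and open triangles at the left edge mark a value of 0. Cdkn1b lies above 40.3 TPM in every sample and Il6 below 0.0691 TPM in every sample.

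Promoter sequences of 3 of the genes are shown: Cxcl1 and Il6, secretory genes of low level that hold the pattern described here and were picked after the matches were seen, and Cdkn1b, the gene of highest level, which does not. They are the 250 bases upstream of the RefSeq start site in assembly GRCr8, taken from the RefSeq promoter table, which held 8 of the 9 symbols, all but Ccl2. Cdkn1b lies at chr4:169491254-169491503 on the plus strand, Cxcl1 at chr14:17479322-17479571 on the minus strand, and Il6 at chr4:5894576-5894825 on the minus strand. Capitals mark 3 G, any 2 bases, 3 T, and 2 C, read on either strand, a form of the site bound by NF-kB, the factor known for switching on inflammatory chemokines and cytokines.
Cdkn1b: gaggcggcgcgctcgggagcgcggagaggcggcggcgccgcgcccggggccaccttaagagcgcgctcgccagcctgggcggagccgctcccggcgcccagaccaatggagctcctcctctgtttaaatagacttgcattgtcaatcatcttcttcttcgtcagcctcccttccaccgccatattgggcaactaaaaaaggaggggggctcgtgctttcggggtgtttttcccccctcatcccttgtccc
Cxcl1: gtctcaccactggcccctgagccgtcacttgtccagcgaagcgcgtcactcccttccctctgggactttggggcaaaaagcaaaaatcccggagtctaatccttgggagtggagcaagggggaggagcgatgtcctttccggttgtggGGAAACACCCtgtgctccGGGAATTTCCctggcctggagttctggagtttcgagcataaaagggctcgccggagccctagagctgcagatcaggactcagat
Il6: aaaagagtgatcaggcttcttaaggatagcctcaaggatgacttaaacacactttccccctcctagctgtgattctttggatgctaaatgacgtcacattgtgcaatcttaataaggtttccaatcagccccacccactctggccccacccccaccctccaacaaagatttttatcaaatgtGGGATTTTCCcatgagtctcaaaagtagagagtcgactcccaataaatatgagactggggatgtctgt
Cxcl1 held 2 such matches, whose ends nearest the start site lay 93 and 75 bases upstream, and Il6 held 1, which lay 59 bases upstream. The other 6 symbols with a sequence, Cdkn1b included, held none, and the pattern occurred in 1.3% of the 33469 promoter windows of this length. The Cdkn1b window held 23 CpG dinucleotides, that of Cxcl1 11, and that of Il6 2, beside a median of 5 over all windows. A match is a description of the sequence, and the counts hold no measure of binding.

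Cdkn1a, which encodes the inhibitor p21, served as the reference. Its 1w0Gy samples were at 15.1 and 14.4 CPM and its 1w4Gy samples at 46.6 and 38.5 CPM. Its 4m0Gy samples were at 17.4 and 15.4 CPM and its 4m4Gy samples at 46.4 and 38.1 CPM. Cdkn1a rose after irradiation at 1 week with a log2 fold change of 1.53 ± 0.12 (SE; edgeR quasi-likelihood adjusted p = 0.0329) and at 4 months with 1.36 ± 0.13 (adjusted p = 0.0151). Over both ages the log2 fold change was 1.45 ± 0.10 (edgeR adjusted p = 0.000135). The call at each age was kept in 8 of 10 alternatives with a test on all samples, DESeq2 and the replicate block among them. It was lost, at nearly the same fold, without a robust estimate of the spread prior (log2 fold changes 1.53 and 1.36, edgeR adjusted p = 0.0811 and 0.104) and with counts summed over transcripts (1.54 and 1.38, edgeR adjusted p = 0.295 and 0.147). It was also lost without either 1w0Gy sample (edgeR adjusted p = 0.0837 and 0.103) and without 4m4Gy sample 1 (edgeR adjusted p = 0.150). None of the genes of the set was called in the same libraries. After irradiation at 1 week 0 of the 5 that passed the filter were called, where 0.00651% of the 15359 genes tested were, and at 4 months 0 of 5, where 0.0197% of the 15253 genes tested were. At an unadjusted p under 0.05 the counts were 1 of 5 at 1 week, beside 5.68% of all genes, and 0 of 5 at 4 months, beside 8.39%. Cdkn2a, Cxcl1, and Il6 did not pass the filter.

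**Figure D2:**
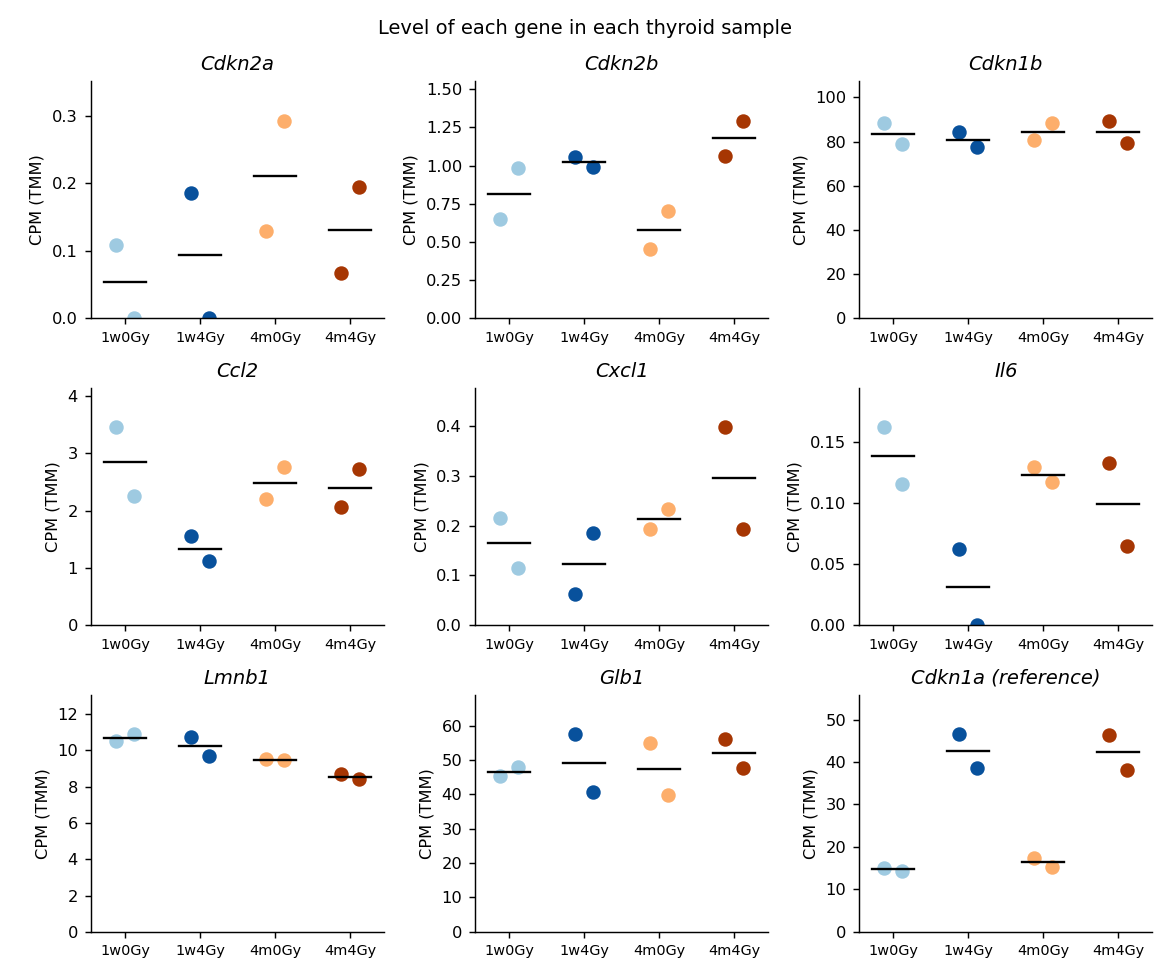
Level of each gene in each sample. The vertical axes are CPM after TMM normalization and start at 0, points are the 2 samples of a group, and bars are group means. The irradiated samples of Cdkn1a, 38.1 to 46.6 CPM, lie above its sham-irradiated samples, 14.4 to 17.4 CPM, while those of Cdkn1b and Glb1 overlap.

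Cdkn2a encodes p16, an inhibitor of CDK4 and CDK6, and, from another reading frame, the ARF protein that stabilizes p53. It had 2 and 0 counts in 1w0Gy, 3 and 0 in 1w4Gy, 2 and 5 in the 4m0Gy rats, and 1 and 3 in the 4m4Gy rats. These counts are at or near the floor of 3 counts, which stands for 0.165 to 0.202 CPM in these libraries. Summed over samples, 9 counts fell in the sham-irradiated and 7 in the irradiated thyroids, with exact 95% Poisson intervals of 4.12 to 17.1 and 2.81 to 14.4, which cover counting error only. The transcripts of Cdkn2a hold mostly the same reads in these files, so that p16 and ARF transcripts cannot be told apart. The mean CPM was 0.133 ± 0.121 in sham-irradiated and 0.112 ± 0.0948 in irradiated samples (SD, n = 4 each; exact two-sided permutation p = 0.83, adjusted 0.83 over the 6 tests of the 3 genes under the filter). The smallest p that 4 against 4 samples allow is 0.0286. After adjustment over the 6 tests, a single test at that minimum would not come under 0.05. This test could therefore not call a difference in any 1 of the 3 genes alone, and the counts were near the floor. By age, the 1w samples held 5 counts and the 4m samples 11 (exact permutation p = 0.171, adjusted 0.343, n = 4 each).

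Cdkn2b, the neighbour of Cdkn2a, encodes p15, another inhibitor of CDK4 and CDK6 that TGF-beta is known to induce. It was at 0.648 and 0.984 CPM in 1w0Gy and at 1.06 and 0.989 CPM in 1w4Gy. In 4m0Gy it was at 0.452 and 0.704 CPM and in 4m4Gy at 1.06 and 1.29 CPM. The irradiated samples were above the sham-irradiated ones at each age, and over both ages the 4 irradiated samples, from 0.989 to 1.29 CPM, did not overlap with the 4 sham-irradiated ones, from 0.452 to 0.984 CPM. The gap was narrow, and it rested on 7 to 20 counts per sample. Of the 5 genes of the set tested, this was the one whose groups did not overlap, beside 1.55% of all genes. The log2 fold change was 0.33 ± 0.41 at 1 week (SE, n = 2 each; edgeR adjusted p = 0.938), 1.01 ± 0.47 at 4 months (edgeR adjusted p = 0.609), and 0.65 ± 0.30 over both ages (edgeR adjusted p = 0.999), with 95% intervals of -0.62 to 1.28, -0.05 to 2.06, and -0.01 to 1.31. Without 1 of the samples the 1-week value ran from 0.06 to 0.65 and the 4-month value from 0.73 to 1.36. The difference between the ages was 0.68 ± 0.59 (interaction term, edgeR adjusted p = 0.776). The 7 endothelial markers, which had positive log2 fold changes in 7 of 7 genes over both ages with a median of 0.18, had the same sign. The 7 adipocyte markers had the opposite sign in 7 of 7 genes, with a median of -0.61. That sign was shared by fibroblast markers in 7 of 7 genes (median -0.08) and macrophage markers in 8 of 10 (median -0.05). It was also shared by parathyroid markers in 3 of 3 (median -0.65) and skeletal muscle markers in 5 of 5 (median -0.43). None of these markers was called. Their part in the Cdkn2b values was not tested, and in bulk tissue fewer cells of a type and less RNA per cell cannot be told apart.

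Cdkn1b encodes p27, which inhibits cyclin E-CDK2 and is known as an inhibitor of resting thyrocytes. It was at 88.2 and 78.7 CPM in 1w0Gy and at 84.4 and 77.5 CPM in 1w4Gy. The 4m0Gy samples were at 80.7 and 88.3 CPM and the 4m4Gy samples at 89.5 and 79.6 CPM. All groups overlapped. The log2 fold change was -0.05 ± 0.09 at 1 week (SE; edgeR adjusted p = 0.973), and its 95% interval, as a linear ratio, ran from 0.834 to 1.13. At 4 months it was 0.00 ± 0.09 (edgeR adjusted p = 0.996), with a ratio interval of 0.871 to 1.15. At both ages the interval therefore lay within a ratio of 1.5 either way.

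**Figure D3:**
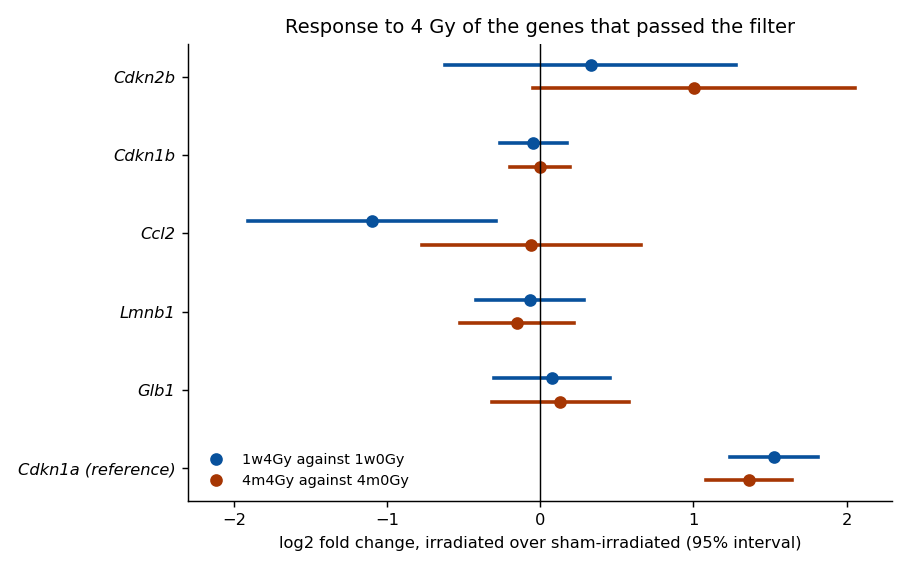
Response to irradiation of the 5 genes that passed the filter and of Cdkn1a. Points are log2 fold changes of irradiated over sham-irradiated thyroids and lines are 95% intervals from edgeR's quasi-likelihood fit, in blue for 1 week and in brown for 4 months. The interval of Ccl2 at 1 week, -1.91 to -0.29, and both intervals of Cdkn1a lie away from 0.

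The inhibitors and pocket proteins beside these genes, and the cyclins and kinases on which they act, showed no call. Of 7 other inhibitors and pocket proteins tested, 0 passed the test at either age, with median log2 fold changes of -0.04 at 1 week and 0.08 at 4 months, where the medians of all genes were 0.00 and 0.01. The one with the largest positive change over both ages was Cdkn1c, the inhibitor p57, with 2.97 and 3.24 CPM in 1w0Gy, 2.92 and 2.60 in 1w4Gy, 3.23 and 3.87 in the 4m0Gy rats, and 4.71 and 5.37 in the 4m4Gy rats (log2 fold change 0.18 ± 0.19, edgeR adjusted p = 0.999). The one with the lowest was Rbl2, the pocket protein p130, at -0.04 ± 0.05. For the cyclins and kinases 0 of 8 at 1 week and 0 of 7 at 4 months were called. Their extremes over both ages were Ccne1, cyclin E1, at a log2 fold change of 0.29 ± 0.33, and Cdk6, at -0.19 ± 0.30.

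Proliferation genes, which are low in cells that have left the cycle, were tested as the counterpart of the inhibitors. At 1 week 14 of 21 and at 4 months 19 of 21 had positive log2 fold changes, with medians of 0.05 and 0.23, and 0 of 21 were called at either age. Over both ages 21 of 21 were positive with a median of 0.15, beside 50.5% of all genes and a median of 0.00, and again 0 were called. At an unadjusted p under 0.05 there was 1 of 21, beside 3.89% of all genes. The sums overlapped at 1 week, 178 to 181 CPM in 1w0Gy and 176 to 204 in 1w4Gy. At 4 months they did not, 160 to 163 CPM in 4m0Gy and 180 to 189 in 4m4Gy. Mki67, which encodes the proliferation antigen Ki-67, was at 5.77 and 5.85 CPM in 1w0Gy and at 8.77 and 7.60 CPM in 1w4Gy. Its 4m0Gy samples were at 3.62 and 3.64 CPM and its 4m4Gy samples at 3.78 and 5.57 CPM. The irradiated samples were the higher ones at each age, where groups did not overlap in 35.5% of all genes at 1 week and 39.6% at 4 months. The log2 fold change over both ages, the largest of the list, was 0.44 ± 0.15 (95% interval 0.10 to 0.77, edgeR adjusted p = 0.999). Tyms, the thymidylate synthase gene, had the smallest value of the list, 0.00 ± 0.11.

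Ccl2 encodes a chemokine that attracts monocytes through the receptor CCR2. It was at 3.45 and 2.26 CPM in 1w0Gy and at 1.55 and 1.11 CPM in 1w4Gy. In 4m0Gy it was at 2.197 and 2.757 CPM and in 4m4Gy at 2.06 and 2.72 CPM. The 1w4Gy samples were the lowest of the 8, while the 4m groups overlapped. The log2 fold change at 1 week was -1.10 ± 0.35 (SE, n = 2 each), a ratio of 0.467 with a 95% interval of 0.267 to 0.817. It did not pass the adjustment over all genes (edgeR adjusted p = 0.849). At 4 months it was -0.06 ± 0.32 (edgeR adjusted p = 0.976; ratio interval 0.586 to 1.58). The difference between the ages was 1.04 ± 0.47 on the log2 scale (interaction term, 95% interval 0.00 to 2.09, edgeR adjusted p = 0.549). Groups that did not overlap were found for 2 of the 5 genes at 1 week, Ccl2 and, by the transcript used, Cdkn2b, beside 35.5% of all genes.

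Markers of other cell types differed between the same libraries. From 1w0Gy to 1w4Gy the adipocyte markers went from 610 and 487 CPM to 343 and 355 CPM in sum, with negative changes in 7 of 7 genes, a median log2 fold change of -0.64, and 6 of 7 at an unadjusted p under 0.05. The fibroblast markers were lower in 7 of 7 genes (median -0.18), the macrophage markers in 9 of 10 (median -0.17), and the parathyroid markers in 3 of 3 (median -0.61), while the endothelial markers were higher in 7 of 7 (median 0.23). Skeletal muscle markers were lower in 5 of 5 tested (median -0.88), with overlapping sums of 12.7 to 92.5 and 6.86 to 49.3 CPM. C cell markers were lower in 3 of 5 (median -0.24). The fibroblast sums, 2627 to 3171 CPM in 1w0Gy and 2308 to 2793 CPM in 1w4Gy, overlapped, as did the macrophage sums, 254 to 311 and 262 to 271 CPM. The adipocyte sums did not overlap, nor did the endothelial sums, 790 to 816 and 932 to 971 CPM, or the parathyroid sums, 3306 to 4824 and 1940 to 2900 CPM. Of the endothelial markers 5 of 7, and of the parathyroid markers 1 of 3, had an unadjusted p under 0.05, beside 5.68% of all genes. At 4 months the adipocyte markers were also lower in 7 of 7 genes (median -0.54), with 0 of 7 at an unadjusted p under 0.05. Their sums overlapped there, at 213 to 418 CPM in 4m0Gy and 197 to 244 CPM in 4m4Gy, as did the Ccl2 values. None of these markers was called or at 0 in every sample, and their part in the Ccl2 values was not tested.

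**Figure D4:**
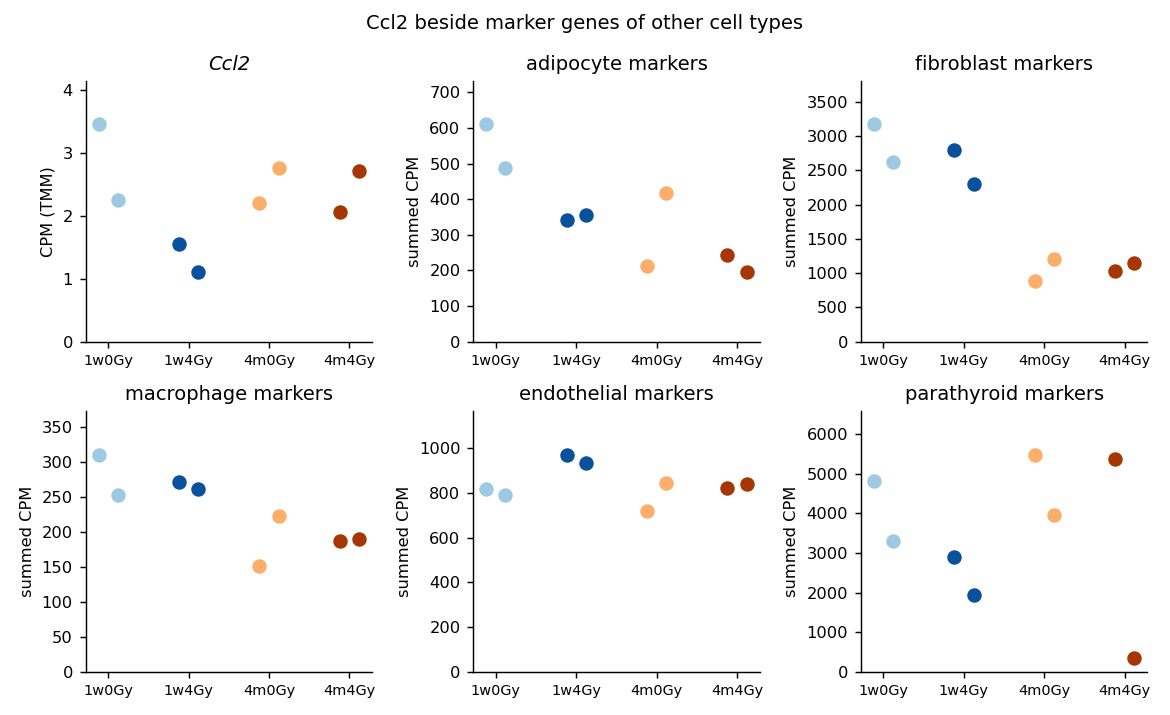
Ccl2 beside the summed CPM of marker genes of other cell types. Each point is a sample, the vertical axes start at 0, and the marker panels give the sum over 7 adipocyte, 7 fibroblast, 10 macrophage, 7 endothelial, and 3 parathyroid genes. Ccl2 and the adipocyte sums are lower in both 1w4Gy samples than in both 1w0Gy samples, and the parathyroid sum of 4m4Gy sample 2 is 343 CPM.

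Cxcl1 encodes a chemokine that attracts neutrophils through CXCR2. The 6 neutrophil markers summed to 3.42 to 5.99 CPM, and Camp and Cxcr1 among them had at most 3 counts in every sample. Cxcl1 itself had 4 and 2 counts in 1w0Gy, 1 and 3 in 1w4Gy, 3 and 4 in the 4m0Gy rats, and 6 and 3 in the 4m4Gy rats. The sums were 13 counts in the sham-irradiated and 13 in the irradiated samples (exact 95% Poisson interval 6.92 to 22.2 for each), and the mean CPM was 0.190 ± 0.0522 and 0.210 ± 0.139 (SD, n = 4 each; exact permutation p = 0.83, adjusted 0.83). By age, the means were 0.145 ± 0.0692 CPM in the 1w and 0.255 ± 0.0972 CPM in the 4m samples (exact permutation p = 0.114, adjusted 0.343, n = 4 each).

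Il6 encodes interleukin-6, a cytokine at the centre of the secretory phenotype. It had 3 and 2 counts in 1w0Gy, 1 and 0 in 1w4Gy, 2 and 2 in the 4m0Gy rats, and 2 and 1 in the 4m4Gy rats. No sample exceeded the floor of 3 counts. The sham-irradiated samples held 9 counts and the irradiated samples 4, with exact 95% Poisson intervals of 4.12 to 17.1 and 1.09 to 10.2, which overlap. The mean CPM was 0.131 ± 0.0214 and 0.0649 ± 0.0542 (SD, n = 4 each; exact permutation p = 0.114, adjusted 0.343). With no filter on low counts, Cdkn2a, Cxcl1, and Il6 entered the edgeR fit, and their adjusted p was between 0.899 and 0.970 at 1 week and between 0.910 and 0.975 at 4 months.

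Of 53 other secretory factors listed, 38 passed the filter at 1 week and 36 at 4 months, and 0 were called at either age. At 1 week 18 had positive and 20 negative log2 fold changes (median -0.02), and at 4 months 27 and 9 (median 0.12). At an unadjusted p under 0.05 there were 4 of 38 at 1 week, 1 positive and 3 negative, beside 5.68% of all genes. At 4 months there were 5 of 36, all positive, beside 8.39%. Cxcl2, Ereg, and Mmp10 had no count in any sample, and Ccl20, Csf2, Cxcl3, Il1a, and Serpinb2 had at most 3 counts in every sample, so that Cxcl2, a close relative of Cxcl1, and the cytokines IL-1 alpha and GM-CSF were, like Il6, at or under the floor in every sample. Csf3, which encodes the granulocyte colony-stimulating factor, had the largest positive change over both ages. It was at 23.2 and 33.1 CPM in 1w0Gy, 37.5 and 42.5 in 1w4Gy, 23.6 and 18.4 in the 4m0Gy rats, and 31.6 and 28.8 in the 4m4Gy rats. Both irradiated groups were above their sham-irradiated groups, beside 35.5% of all genes without overlap at 1 week and 39.6% at 4 months. The log2 fold change over both ages was 0.52 ± 0.12 (SE, 95% interval 0.26 to 0.78, edgeR adjusted p = 0.785). Ccl7, a chemokine that like Ccl2 acts on CCR2, had the lowest value, -0.71 ± 0.49 (edgeR adjusted p = 0.999), and was at 0.0618 to 0.971 CPM. Its lowest sample was 1w4Gy sample 2, and the log2 scale is unsteady at such counts.

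Of 16 signalling genes upstream or downstream of Ccl2, Cxcl1, and Il6, 0 were called at either age, with medians of -0.08 at 1 week and 0.05 at 4 months. Cebpd, which encodes the transcription factor C/EBP delta, was at 7.12 and 11.1 CPM in 1w0Gy and 16.5 and 16.1 in 1w4Gy. Its 4m0Gy samples were at 14.9 and 14.4 CPM and its 4m4Gy samples at 22.4 and 16.1 CPM. The irradiated samples were above the sham-irradiated ones at each age, beside 35.5% of all genes whose groups did not overlap at 1 week and 39.6% at 4 months. The log2 fold change over both ages, the largest of the list, was 0.61 ± 0.16 (95% interval 0.26 to 0.97, edgeR adjusted p = 0.999). At an unadjusted p under 0.05 there were 4 of 16 over both ages, 3 positive and 1 negative, beside 3.89% of all genes. The negative one was Cebpb, at -0.38 ± 0.15 (edgeR adjusted p = 0.999). The lowest value belonged to Cxcr2, the receptor of Cxcl1, at -0.41 ± 0.31 and 0.711 to 1.97 CPM. Immediate early genes, which can rise with handling of tissue, had medians of -0.11 at 1 week and 0.14 at 4 months in 11 genes tested, with 0 called.

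**Figure D5:**
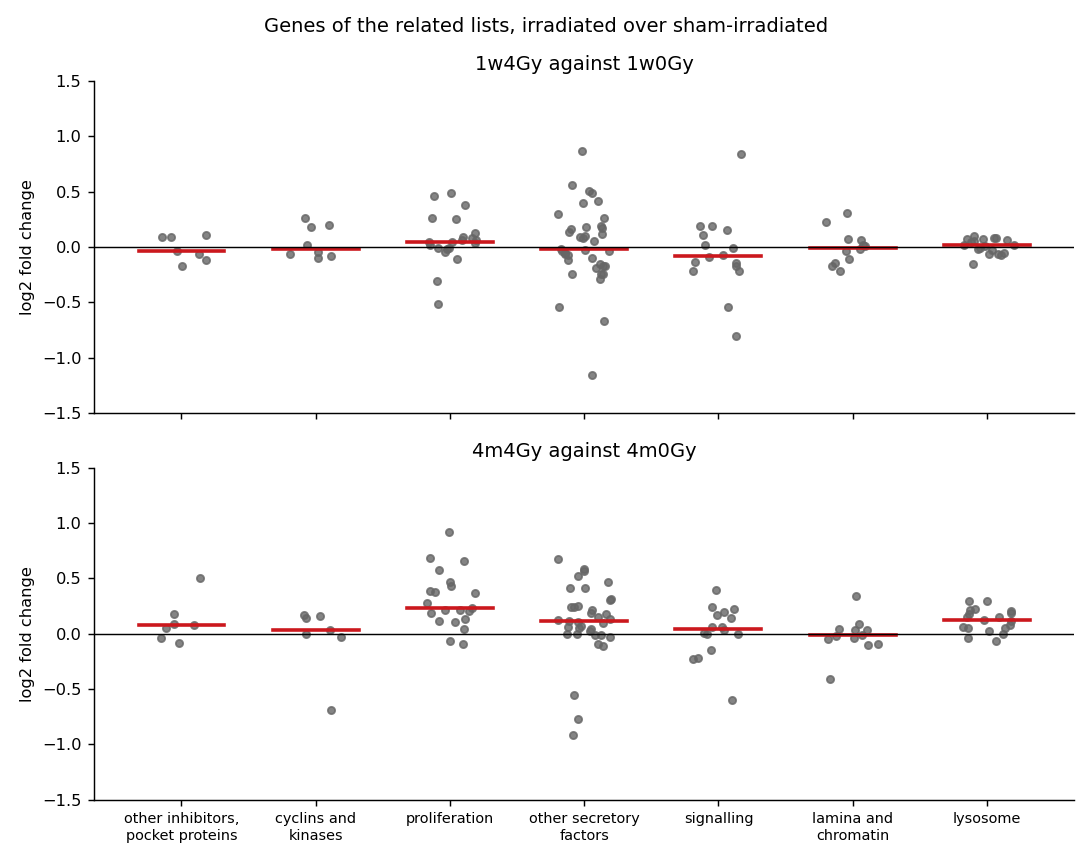
Log2 fold change of each gene of the 7 related lists, irradiated over sham-irradiated, at 1 week (upper panel) and at 4 months (lower panel). Points are genes that passed the filter and red bars are list medians, which lie between -0.08 and 0.05 at 1 week and between -0.01 and 0.23 at 4 months.

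Lmnb1 encodes lamin B1, the lamina protein that senescent cells lose. It was at 10.5 and 10.9 CPM in 1w0Gy, 10.8 and 9.70 in 1w4Gy, 9.50 and 9.44 in the 4m0Gy rats, and 8.69 and 8.42 in the 4m4Gy rats. The irradiated samples overlapped with the sham-irradiated ones at 1 week and were below them at 4 months. The log2 fold change was -0.07 ± 0.15 at 1 week (SE; edgeR adjusted p = 0.977; ratio interval 0.749 to 1.22) and -0.15 ± 0.17 at 4 months (edgeR adjusted p = 0.859; ratio interval 0.697 to 1.17). Non-overlap at 4 months was seen in 2 of 5 genes, Lmnb1 and Cdkn2b, beside 39.6% of all genes. By age, the 4 samples of the 4m groups, 8.42 to 9.50 CPM, were all below the 4 of the 1w groups, 9.70 to 10.9 CPM. This was 1 of 5 genes, beside 12.8% of all genes, and the log2 difference was -0.22 ± 0.10 (95% interval -0.43 to 0.00, edgeR adjusted p = 0.248). In the sham-irradiated rats alone it was -0.18 ± 0.14 (edgeR adjusted p = 0.560).

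Lmnb1 is often higher in dividing cells. The proliferation genes were lower with age in 18 of 21 genes in the sham-irradiated rats (median -0.27), with sums of 178 to 181 CPM in 1w0Gy and 160 to 163 CPM in 4m0Gy. Over both doses 15 of 21 were lower (median -0.19), and the sums overlapped, at 176 to 204 CPM in 1w4Gy and 180 to 189 CPM in 4m4Gy. Mki67 was called lower with age over both doses, at -0.74 ± 0.15 (edgeR adjusted p = 0.0217). Fibroblast markers were lower with age in 7 of 7 genes (median -0.99 in the sham-irradiated rats), from 2627 to 3171 CPM in sum to 889 to 1200 CPM. In the sham-irradiated rats macrophage markers were also lower in 10 of 10 genes (median -0.63) and adipocyte markers in 7 of 7 (median -0.80). Thyrocyte markers were higher in 8 of 9 (median 0.14) and C cell markers in 4 of 5 (median 0.50). The part of these genes and cells in the Lmnb1 values was not tested.

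The other lamina and chromatin proteins gave 0 calls of 12 at either age, with medians of 0.00 at 1 week and -0.01 at 4 months. Sirt6, a chromatin deacylase, had the largest positive change over both ages, 0.12 ± 0.09, but its values at the ages had opposite signs. It was at 29.6 and 29.7 CPM in 1w0Gy and 28.1 and 26.9 CPM in 1w4Gy, a log2 difference of -0.11 ± 0.10 that was not called (edgeR adjusted p = 0.910). Its 4m0Gy samples were at 25.1 and 24.2 CPM and its 4m4Gy samples at 32.7 and 30.1 CPM, with 0.34 ± 0.10 (edgeR adjusted p = 0.426). The difference between the ages, 0.45 ± 0.13, was not called (interaction term, edgeR adjusted p = 0.416). Hmgb3, a relative of Hmgb2, had the lowest value over both ages, -0.11 ± 0.07. Hmga2, a chromatin protein of embryonic tissues, had no count in any sample.

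The rows named Hmgb2l1 are described as high mobility group box 2 in the deposited table, and HMGB2 is a chromatin protein that falls in senescent cells. The first, ENSRNOG00000013167, was at 22.7 and 14.2 CPM in 1w0Gy, 16.9 and 11.2 in 1w4Gy, 13.6 and 10.7 in the 4m0Gy rats, and 15.8 and 16.6 in the 4m4Gy rats. Its groups overlapped at 1 week, while at 4 months both irradiated samples were the higher ones, beside 39.6% of all genes without overlap. The log2 fold change was -0.40 ± 0.28 at 1 week (edgeR adjusted p = 0.890) and 0.41 ± 0.15 at 4 months (95% interval 0.07 to 0.76, edgeR adjusted p = 0.529). Without 1 library these values ran from -0.72 to -0.02 and from 0.25 to 0.59. The second, ENSRNOG00000033321, was at 0.486 to 1.29 CPM, with log2 fold changes of 0.78 ± 0.44 and -0.51 ± 0.44 (edgeR adjusted p = 0.889 and 0.814). Near-identical copies can share reads, so both rows are uncertain, and neither was counted as Hmgb2.

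Glb1 encodes lysosomal beta-galactosidase, the enzyme behind the senescence stain. It was at 45.2 and 47.9 CPM in 1w0Gy, 57.5 and 40.8 in 1w4Gy, 54.9 and 39.9 in the 4m0Gy rats, and 56.0 and 47.8 in the 4m4Gy rats. The groups overlapped, and the spread within 1w4Gy was wider than the distance between group means. The log2 fold change was 0.08 ± 0.16 at 1 week (edgeR adjusted p = 0.973; ratio interval 0.812 to 1.37) and 0.13 ± 0.17 at 4 months (edgeR adjusted p = 0.894; ratio interval 0.802 to 1.49). Of the 19 other lysosomal genes tested, 11 had positive values at 1 week (median 0.02) and 16 at 4 months (median 0.13), where 51.9% of all genes were positive. At 4 months 7 of 19 had an unadjusted p under 0.05, beside 8.39% of all genes, all with positive values of 0.18 to 0.30, and 0 were called at either age. Gusb, beta-glucuronidase, had the largest positive change over both ages, 0.16 ± 0.09, and Ctsd, cathepsin D, the lowest, -0.04 ± 0.07.

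Neither the interaction of age and irradiation nor irradiation over both ages gave a call among the 5 genes tested. The interaction was called for 0% of 15684 genes, with 1430 at an unadjusted p under 0.05, and irradiation over both ages for 0.0128%. At an unadjusted p under 0.05 the set gave 0 of 5 in each, beside 9.12% and 3.89% of all genes. By DESeq2, 26 genes were called in the interaction, with 0 of this set. Cdkn2b and Ccl2 had no adjusted p in that run and could not have been called. With age, where many genes were called, the set gave 0 of 5 in the sham-irradiated rats, beside 1.06% of 15364 genes, and 0 of 5 over both doses, beside 4.27% of 15684 genes. Besides Lmnb1, the log2 differences over both doses were 0.27 ± 0.27 for Ccl2, 0.05 ± 0.13 for Glb1, 0.04 ± 0.07 for Cdkn1b, and -0.10 ± 0.30 for Cdkn2b. In the related lists age gave calls over both doses for Mmp2 (-0.91 ± 0.10), Mmp14 (-0.29 ± 0.06), Icam1 (0.47 ± 0.07), and Igfbp3 (0.59 ± 0.11) among 37 secretory factors, for Lmna (-0.26 ± 0.06) among 12 lamina and chromatin genes, and for Ctss (-0.77 ± 0.11) and Psap (0.30 ± 0.07) among 19 lysosomal genes. These genes were singled out after their values were seen. Mmp2 is made by fibroblasts and Ctss by macrophages, whose markers were lower with age in 7 of 7 and in 10 of 10 genes, and the part of these cells was not tested.

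The genes whose log2 CPM ran most like each of the 5 over the 8 samples were searched among 15684 genes, and Pearson's r is given as a description. For Cdkn2b they were Clip2 (r = 0.942) and Unc50 (r = 0.922), for Cdkn1b Veph1 (r = 0.934) and Cend1 (r = 0.931), and for Ccl2 Tceal3 (r = 0.954) and Hirip3 (r = 0.949). For Lmnb1 they were Enpp3 (r = 0.964) and Rexo4 (r = 0.962), and for Glb1 Pitx3 (r = 0.969) and Cbwd1 (r = 0.961). A search over so many genes in 8 shared libraries favours high values, and nothing was tested. Enpp3 followed the order of Lmnb1, from 55.1 to 58.4 CPM in the 1w samples to 46.5 to 51.3 CPM in the 4m samples.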

How the data were processed

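Thyroid RNA of 8 rats was sequenced by the study with a directional library kit. Per the labels and the study's methods, the authors mapped the reads with HISAT2 2.2.1 and counted them with featureCounts 2.0.0, and the genome build is not given in the sources used here. The deposited raw counts are per transcript and not normalized, and transcripts of a gene can hold the same reads. Those of Glb1 and of Cdkn2a had nearly equal counts. In contrast, 1 Cdkn2b transcript had 2 to 9 counts per sample beside 7 to 20 for the one used. For Cdkn1a the other transcript had 98 to 319 counts beside 248 to 749. The deposited TPM were computed by the authors from these counts and the transcript length. The deposited RPKM in 8 columns were not used here. Each gene was represented by its transcript of highest summed count. Tests used edgeR 4.0.16 in R 4.3.3 (TMM, filterByExpr, robust quasi-likelihood fit, Benjamini-Hochberg adjustment). The robust option was set after the data were seen. Irradiation at each age, and age in sham-irradiated rats, were fitted on the 4 samples concerned, and the other comparisons on all 8. Genes under the filter were compared by exact permutation. DESeq2 1.42.0, other scalings, filters, and transcript choices were alternatives, and the scripts were tested on simulated data.

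The genes and lists were chosen with earlier results of these data known. Named genes were all 9 of the set, the genes of each related list with the largest positive and the lowest value over both ages, and the 2 genes with the highest Pearson r for each gene tested, among genes with a symbol other than a clone or locus number. List genes called with age, Cebpb, and list genes without a count or under the floor were named after their values were seen. E2f1, Timp2, Lbr, Emd, Suv39h1, Lamp2, Cd4, Myh1, and Dusp1 of the lists had no matched row and were not analysed here. Replicates were distinct libraries (chi-square over its degrees of freedom, 8.44 to 17.3). The spread between 2 rats limits the precision of abundant genes, and counting error also that of Cdkn2a, Cxcl1, Il6, and Cdkn2b. Poisson intervals and floors cover counting error only.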

Additional observations from a re-analysis of the deposited data

How the results depend on the processing

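None of the 5 genes of the set that were tested was called in any of the 6 comparisons under any alternative run that gave it an adjusted p. DESeq2 gave some of them no adjusted p and so could not call them. Among these were Cdkn2b and Ccl2 at 1 week, at 4 months, and in the interaction, and Lmnb1 at 4 months. Cdkn2b, with 7 counts in 4m0Gy sample 1, was also left out at 4 months where at least 10 counts in every sample were required. The count over all genes moved. DESeq2 called 22 genes at 1 week, 11 at 4 months, 26 in the interaction, 11 for irradiation over both ages, 346 for age in sham-irradiated rats, and 1046 for age over both doses. Without the filter the counts were 5, 84, 6, and, for age in sham-irradiated rats, 513. With counts summed over transcripts they were 0 at 1 week, 0 at 4 months, and 27 for age in sham-irradiated rats. The fit of all 8 samples gave 1 at 4 months, and at least 10 counts in every sample gave 1 for irradiation over both ages. Without the robust prior, an alternative chosen after seeing the data, the counts were 0 at 1 week, 0 at 4 months, and 1 over both ages. The cause of these shifts was not tested. Leaving out 1 sample gave 2 to 61 genes at 1 week, 3 to 116 at 4 months, 0 to 22 in the interaction, 1 to 5 over both ages, 12 to 743 for age in sham-irradiated rats, and 292 to 667 for age over both doses.

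The replicate numbers mark different rats, and the labels name no pairing of samples between groups. Deviations of samples with the same number correlated at -0.236 to 0.189. With 2 samples per group this cannot decide whether samples of the same number share a factor. With the replicate block the counts were 21 at 1 week, 59 at 4 months, and 14 for age in sham-irradiated rats.

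Log2 values near 0 changed sign without being called. At 1 week Lmnb1 was 0.0010 with the longest transcript, and at 4 months Cdkn1b was 0.0091 with the upper quartile and 0.00070 with all 8 samples. Leaving out 1 sample gave, at 1 week, -0.12 to 0.043 for Cdkn1b, -0.14 to 0.0065 for Lmnb1, and -0.19 to 0.30 for Glb1. At 4 months it gave -0.091 to 0.071 for Cdkn1b, -0.28 to 0.13 for Ccl2, and -0.091 to 0.37 for Glb1. For age over both doses it gave -0.24 to 0.085 for Cdkn2b and -0.042 to 0.15 for Glb1. Ccl2 at 1 week stayed negative throughout, at -1.37 to -0.75 without 1 sample, with edgeR adjusted p of 0.265 to 1. On the log2(TPM + 1) scale it was -0.75 and Cdkn2b at 4 months was 0.23, since adding 1 understates changes of low genes.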
